A study of Mus musculus with 15 samples.

Results

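The first 3 days after dexamethasone withdrawal were followed in mouse adrenal glands by comparing 4 arrays taken on recovery day 3 with 3 arrays taken at withdrawal, the end of treatment. These 7 arrays of the 15 in the series were chosen by their titles, and all 21439 genes with a named probe set were compared between them. The series used male wild type C57BL/6J mice, given as 6 weeks old in the labels of every array. Mice of the withdrawal group had received dexamethasone in their drinking water for 14 days, and those of the day 3 group the same treatment followed by 3 days without it. The control group (4 arrays) was taken before any dexamethasone and the day 7 group (4 arrays) 7 days after withdrawal. Both are used here to show where a level stands and to share in the estimate of the spread. Each array is titled as a biological replicate of whole adrenal gland. The labels do not say whether an array holds 1 animal or pooled glands. Time since treatment and the age of the mice advance together and cannot be told apart.

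Dexamethasone is a synthetic glucocorticoid that acts on the pituitary and hypothalamus to lower the release of ACTH. ACTH acts through its receptor Mc2r and cyclic AMP on the zona fasciculata, the broad inner layer of the cortex that makes corticosterone from cholesterol. The outer zona glomerulosa makes aldosterone under angiotensin and potassium and is kept by WNT signals from the capsule. Cortical cells take cholesterol from lipoproteins through Scarb1 and also make it from acetyl-CoA, through mevalonate, squalene and lanosterol. When cell sterol runs low, the transcription factor Srebf2 raises the enzymes of this route.

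The arrays carried the genes that define the tissue. On the log2 scale of the deposited values, where array medians were 1.55 to 1.64 and lower levels are taken as the floor, the cortical genes Cyp11a1, Star, Cyp21a1 and Hsd3b1 stood at 8.09 or higher in all 7 arrays and Nr5a1 was between 5.88 and 6.39. The medullary genes Th, Pnmt, Dbh and Chga lay between 8.37 and 10.98. Of 23 measured genes of the chromaffin cells of the medulla, 1 passed the test and 21 had a lower mean at day 3 (median -0.18). The mean of this list was 7.36 to 7.49 at withdrawal and 6.96 to 7.56 at day 3.

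Day 3 replicates 1 and 3 carried genes of liver, and day 3 replicate 2 carried genes of neutrophils. The mean level over 23 measured liver genes was 5.10 in day 3 replicate 1 and 3.70 in replicate 3, against 2.26 in replicate 2 and 2.32 in replicate 4. At withdrawal it was 2.46, 2.68 and 2.26. Albumin (Alb) stood at 8.24 in day 3 replicate 1 and 5.48 in replicate 3, at 1.78 in replicate 2 and 2.27 in replicate 4, and between 2.86 and 2.98 at withdrawal. In replicate 1, 18 of the 23 liver genes lay more than 1 log2 unit above every withdrawal array, and in replicate 3, 10 did. Liver genes were also high in 1 control array (mean 3.76) and in 3 day 7 arrays (3.43 to 3.98). Of 21 neutrophil genes, 5 lay more than 1 unit above every withdrawal array in day 3 replicate 2, among them the calprotectin genes S100a8 (7.69) and S100a9 (7.47) and the granule peptide Camp (5.43). Elane, a protease of early neutrophils, was at the floor there, at 1.45. Adipocyte genes had a mean of 5.94 in day 3 replicate 3, where the brown fat genes Ucp1 (4.79) and Cidea (4.74) were high, and of 4.81 in replicate 2. By limma 0 genes of the liver, neutrophil, adipocyte and kidney lists were called, and at an unadjusted p under 0.05 there were 1, 2, 3 and 0. The part of these cells in the results below was not tested, and counts are also given without day 3 replicates 1 and 2. That fit keeps replicate 3, with its liver and adipocyte genes, and no fit left out replicates 1 and 3 together.

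**Figure D1:**
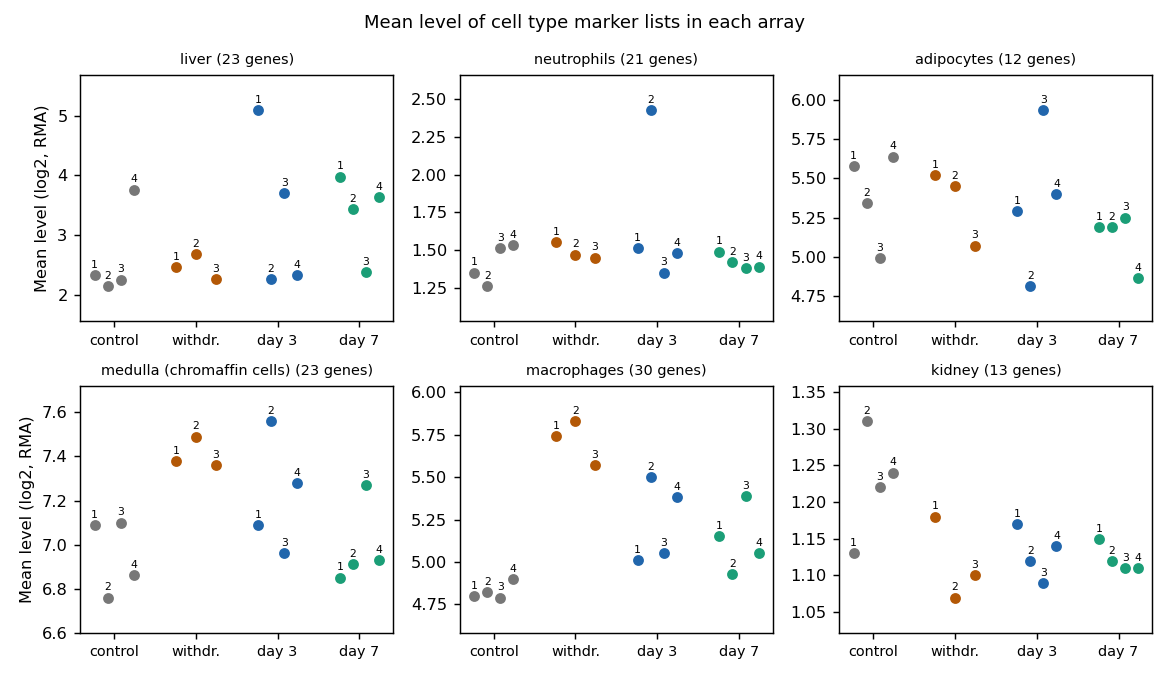
Mean level (log2, vertical axis) of 6 lists of cell type markers in each of the 15 arrays, by group on the horizontal axis; each point is 1 array, with its replicate number. Day 3 replicate 1 has the highest liver mean (5.10) and day 3 replicate 2 the highest neutrophil mean (2.43), while the 3 withdrawal arrays have the highest macrophage means (5.57 to 5.83).

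Limma called 293 genes higher and 190 lower at day 3 than at withdrawal, with p-values adjusted over all genes and a threshold of 0.05. These are 2.25% of the genes tested, 1.37% higher and 0.886% lower. Of them, 78 were higher and 43 lower by at least 2-fold. The median difference over all genes was -0.005 log2. The groups did not overlap for 478 of the 483 genes called, and for 12.1% of all genes. 55 lists of genes for pathways and cell types hold 877 measured genes, of which 72 rose and 33 fell. A list is described by its counts and its median difference, which stand beside these shares and the median of all genes; lists were not tested. The levels are relative to all RNA of the gland. In these bulk samples fewer cells of a type, less RNA per cell and a larger share of other cells cannot be told apart.

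The counts moved with single arrays. Fits without 1 array keep the control and day 7 arrays in the estimate of the spread. Where 1 left-out array is named with a gene's adjusted p, it gave the highest p of the 7 such fits. The call may be lost in others of these fits too. Without withdrawal replicate 2 limma called 130 genes higher and 79 lower, without withdrawal replicate 3 155 higher, and without withdrawal replicate 1 125 lower. The call counts also fell by over 1.5 times without day 3 replicate 1 (113 lower) and without day 3 replicate 4 (194 higher and 121 lower). With both day 3 replicates 1 and 2 left out, 145 genes were higher and 60 lower. The lists described next then had 4 rises and 1 fall in steroid synthesis, 4 and 1 in the zona fasciculata, 3 rises in fatty acid synthesis, 1 in oxidative phosphorylation and 4 in endothelium, and 3 falls in the zona glomerulosa and 2 in iron-recycling macrophages.

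**Figure D2:**
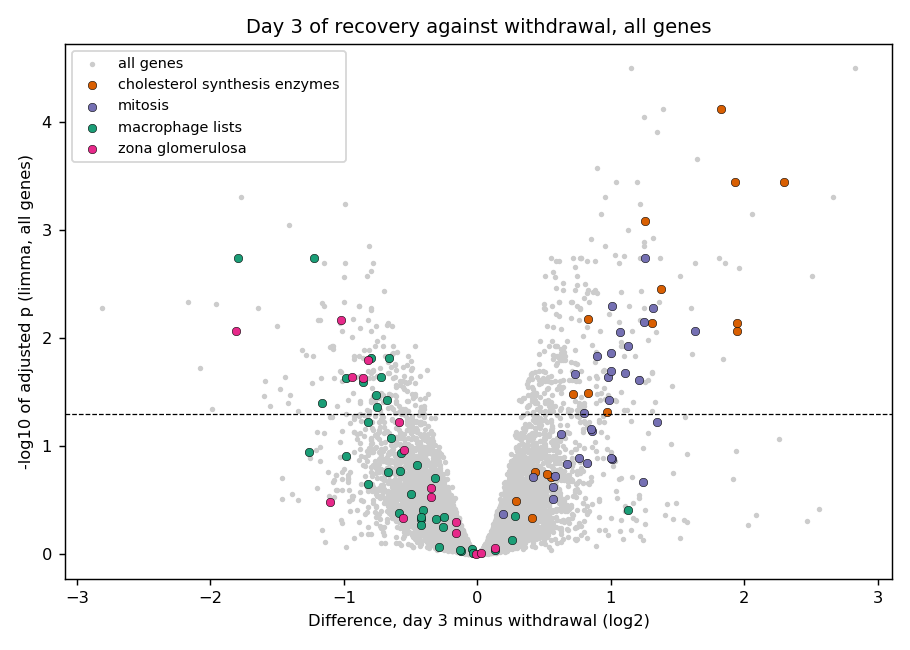
Each point is 1 gene, with its difference between day 3 and withdrawal (log2, horizontal axis) and the -log10 of its limma adjusted p (vertical axis); genes of 4 themes are coloured and the dashed line marks an adjusted p of 0.05. Cholesterol synthesis and mitosis genes lie to the right of 0 without exception, and most macrophage and zona glomerulosa genes lie to the left.

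Most measured enzymes that make cholesterol rose, among them enzymes of the mevalonate steps and of the last reduction. Of 17 measured enzymes 12 rose, 0 fell, and all 17 had a higher mean at day 3. In the 14 enzymes without overlap, every day 3 array lay above every withdrawal array. The rises reached 4.92-fold, for Tm7sf2, a sterol reductase that acts after lanosterol. Its promoter is shown because Tm7sf2 has the largest rise and because a match to a searched motif, which the choice required, is present. It is the 250 bases before the RefSeq start on the minus strand of GRCm38.p6 at chr19:6067851-6068100, written 5′ to 3′, and the capitals mark its 1 match to the CCAAT box, a site that the factor NF-Y binds, on the opposite strand (read as ATTGG):
Tm7sf2: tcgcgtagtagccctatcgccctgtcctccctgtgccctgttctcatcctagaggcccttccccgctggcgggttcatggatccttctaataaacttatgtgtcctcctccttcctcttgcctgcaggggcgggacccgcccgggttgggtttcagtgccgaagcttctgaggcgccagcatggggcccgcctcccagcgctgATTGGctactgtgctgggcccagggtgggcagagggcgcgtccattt
The 7 enzymes called from lanosterol onward have 9 starts in the RefSeq table, and 7 of the 9 (77.8%) hold CCAAT on either strand in this window. Over all 32851 promoters of the table the share was 33.8%. The promoters of Mvk and Mvd, the called enzymes of the mevalonate steps that the table holds, each have a CCAAT match. A sterol element spelled TCACNCCAC, present in 1.1% of all promoters, was in 0 of these windows. Both motifs were searched on both strands, and the spellings do not overlap. A match describes these letters and is not evidence of binding.

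In the mevalonate and squalene steps 5 of 7 measured genes rose, out of 10 listed, with a median of 0.83 log2. Fdps, which makes farnesyl diphosphate, stood at 6.51, 6.83 and 6.41 at withdrawal and at 8.31, 8.85, 8.44 and 8.45 at day 3. It rose 3.80-fold, by 1.93 ± 0.21 (adjusted p = 0.000357), and the groups lay more than 1 unit apart. Sqle, which makes squalene epoxide, stood at 4.91, 5.44 and 5.34 at withdrawal and at 7.69, 7.56, 6.71 and 6.77 at day 3. Its day 3 arrays fell into a higher pair, replicates 1 and 2, and a lower pair, and all 4 lay above withdrawal (1.95 ± 0.34, adjusted p = 0.00724). Mevalonate kinase, Mvk, rose by 0.83 ± 0.14 (adjusted p = 0.00667). Squalene synthase, Fdft1 (0.72 ± 0.16, adjusted p = 0.0327), and mevalonate diphosphate decarboxylase, Mvd (0.97 ± 0.24, adjusted p = 0.0481), were called, and each lost its call in 5 of the 7 fits without 1 array, with adjusted p up to 0.111 and 0.188 without withdrawal replicate 3. Hmgcs1, an early enzyme of the route, had 7.59, 7.15 and 7.36 at withdrawal and 8.19, 8.27, 7.49 and 7.15 at day 3, a difference of 0.41 ± 0.23 that did not pass (adjusted p = 0.459).

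From lanosterol to cholesterol 7 of 10 measured genes rose, out of 11 listed, with a median of 1.28 log2. Dhcr7, the reductase of the last step, stood at 6.45, 6.69 and 6.46 at withdrawal and at 8.48, 8.44, 8.25 and 8.28 at day 3. It rose 3.55-fold, by 1.83 ± 0.16 (adjusted p = 7.58e-05), with little spread within either group. Tm7sf2 stood at 4.00, 4.35 and 3.46 at withdrawal and at 6.30, 6.61, 5.97 and 6.06 at day 3 (2.30 ± 0.25, adjusted p = 0.000357). All 4 of its day 3 arrays lay above each of the other 11 arrays of the series, which also held for Nsdhl and Hsd17b7. The demethylase Cyp51 stood at 4.33, 4.67 and 4.74 and then at 6.98, 7.17, 5.81 and 6.15, with replicates 1 and 2 again above 3 and 4 (1.95 ± 0.35, adjusted p = 0.00868). The lanosterol cyclase Lss rose by 1.38 ± 0.21, the methyl sterol oxidase Msmo1 by 1.26 ± 0.15, Hsd17b7 by 1.31 ± 0.23 and Nsdhl by 0.83 ± 0.19, each with the groups apart. Ebp (0.43 ± 0.15, adjusted p = 0.173) and Sc5d (0.52 ± 0.18, adjusted p = 0.182) were among the 3 that did not pass.

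The higher day 3 arrays for Sqle, Cyp51 and Hmgcs1 were replicates 1 and 2. Replicates 1 and 3 carried liver genes and replicate 2 neutrophil genes, and a link with the levels of these enzymes was not tested. Without replicates 1 and 2, 2 genes of the mevalonate and squalene steps and 4 from lanosterol onward were called, with medians of 0.58 and 0.96. Sqle then differed by 1.51 (adjusted p = 0.0934) and Cyp51 by 1.40 (adjusted p = 0.0982), while Fdps (1.86, adjusted p = 0.00499), Dhcr7 (1.73, adjusted p = 0.00243) and Tm7sf2 (2.08, adjusted p = 0.00769) were called.

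**Figure D3:**
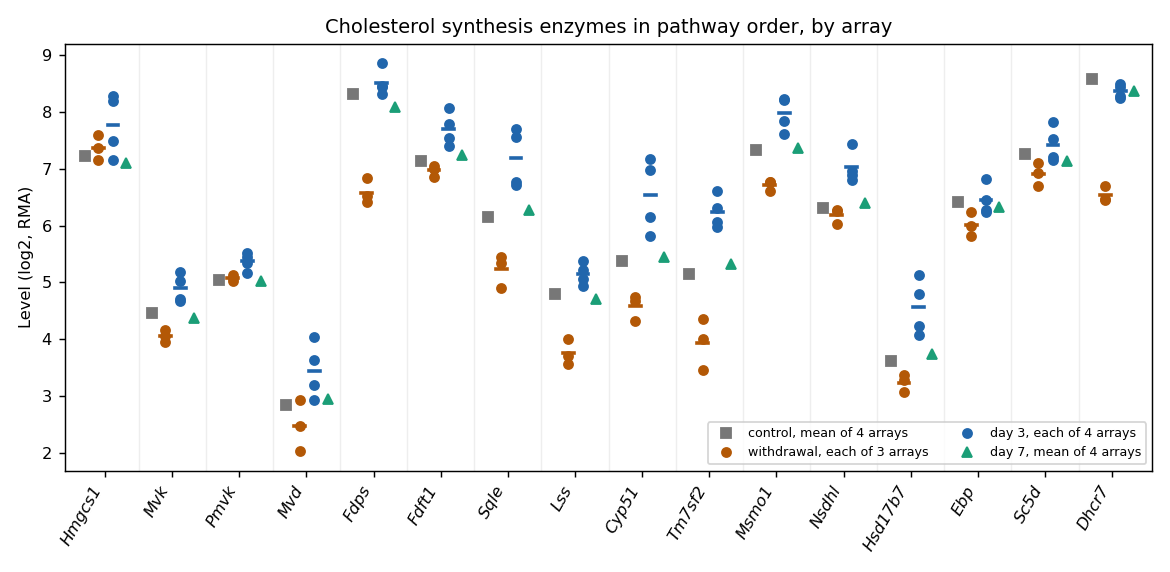
Levels (log2, vertical axis) of 16 cholesterol synthesis enzymes in pathway order: circles are single withdrawal and day 3 arrays with their mean as a bar, and the square and triangle are the control and day 7 means. Dhcr7 and Fdps lay near their control means at day 3 (8.36 against 8.58, and 8.51 against 8.31), and Tm7sf2 (6.23 against 5.15) and Cyp51 (6.53 against 5.37) lay above theirs.

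Among the genes that sense sterols, Insig1, itself raised by SREBP and a brake on it, rose and Abca1, which exports cholesterol and is raised by the oxysterol receptor LXR, fell. Insig1 stood at 6.08, 6.33 and 6.28 at withdrawal and at 7.88, 7.59, 7.15 and 7.24 at day 3 (1.23 ± 0.19, adjusted p = 0.00368). Abca1 stood at 7.05, 7.04 and 7.25 at withdrawal and at 5.84, 6.08, 6.17 and 6.01 at day 3. It fell 2.12-fold (-1.08 ± 0.20, adjusted p = 0.0118), to below each of the other 11 arrays of the series, with a control mean of 7.62. The call of Abca1 was lost without withdrawal replicate 3 (-1.02, adjusted p = 0.0506). The other 9 of the 11 measured genes did not pass, Srebf2 (0.58 ± 0.25, adjusted p = 0.303) and Srebf1 (0.19 ± 0.15, adjusted p = 0.631) among them.

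In lipoprotein uptake and sterol transport 2 of 12 genes rose, with a median of -0.11. Scarb1, the receptor for high density lipoprotein, stood at 7.97, 8.78 and 8.55 at withdrawal and at 10.16, 10.12, 10.02 and 10.03 at day 3, a rise of 3.13-fold (adjusted p = 0.000221). Its day 3 arrays lay close together and the withdrawal arrays further apart (SD 0.07 against 0.42). Stard4, a carrier of cholesterol between membranes, rose by 0.78 ± 0.16 (adjusted p = 0.0203), a call lost in 4 of the 7 fits without 1 array (adjusted p up to 0.084, without withdrawal replicate 1). Of 14 genes of lipid droplets and cholesteryl ester turnover limma called 0 (5 at an unadjusted p under 0.05; median 0.06), with Lipe, the lipase that frees stored cholesterol, at 0.39 ± 0.14 (adjusted p = 0.213).

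Of 14 genes of fatty acid synthesis and desaturation 3 rose and 13 had a higher mean (median 0.38). The desaturases that make polyunsaturated fatty acids, Fads2 (1.22 ± 0.14, adjusted p = 0.000571) and Fads1 (1.10 ± 0.15, adjusted p = 0.00174), and Acly, which makes cytosolic acetyl-CoA from citrate (0.75 ± 0.12, adjusted p = 0.00326), were called in all 7 fits without 1 array. Fads2 stood at 8.93, 9.27 and 9.51 at withdrawal and at 10.60, 10.50, 10.38 and 10.35 at day 3. The fatty acid synthase gene Fasn stood at 6.68, 6.96, 7.82 and 7.41 at day 3 and between 6.76 and 6.96 at withdrawal (0.38 ± 0.22, adjusted p = 0.484). Fasn was highest in day 3 replicate 3, the array with the highest adipocyte mean, where Sqle and Cyp51 were lowest. A link between these levels was not tested.

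The genes through which ACTH acts rose in part. Mrap, the accessory protein that brings the ACTH receptor to the cell surface, stood at 7.43, 7.24 and 7.36 at withdrawal and at 8.52, 9.01, 8.69 and 8.55 at day 3 (1.35 ± 0.13, adjusted p = 0.000123). Prkar2b, a regulatory subunit of protein kinase A, stood at 6.85, 6.80 and 7.00 and then at 8.14, 8.28, 8.16 and 7.95 (1.25 ± 0.17, adjusted p = 0.00142). For both, the gap between the groups was wider than the range of either. The other 15 of 17 measured genes of the ACTH receptor and cyclic AMP list did not pass, and the median was 0.12. The receptor itself, Mc2r, had 9.25, 9.25 and 9.37 at withdrawal and 9.52, 9.40, 9.78 and 9.52 at day 3, without overlap but with a difference of 0.26 ± 0.10 (adjusted p = 0.249).

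Of 12 steroid synthesis genes 5 rose and 1 fell, with a median of 0.22. The largest rise was that of Cyp21a1, the steroid 21-hydroxylase, at 8.09, 8.44 and 8.36 at withdrawal and 9.44, 9.39, 9.51 and 9.43 at day 3 (2.21-fold, adjusted p = 3.2e-05). Cyp11b1, the enzyme that completes corticosterone, stood at 9.19, 8.78 and 9.23 and then at 9.87, 9.70, 9.93 and 9.84 (1.70-fold, adjusted p = 0.00183). Tspo, a protein of the outer mitochondrial membrane, rose 1.74-fold and the electron carrier Fdx1 1.62-fold. These 4 were called in all 7 fits without 1 array, and Tspo was not called in the fit of the 7 arrays alone (adjusted p = 0.0612). Cyp11a1, the enzyme of side-chain cleavage, was near the top of the scale of these arrays, at 10.29 to 10.44 at withdrawal and 10.61 to 10.82 at day 3. Its call (0.34 ± 0.08, adjusted p = 0.0356) was lost in 6 of the 7 fits without 1 array, with adjusted p up to 0.124 without withdrawal replicate 1, and its other probe set differed by 0.14. The 1 gene that fell, Hsd3b6, is an enzyme of the zona glomerulosa.

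In the zona fasciculata list 4 of 8 genes rose and 1 fell (median 0.54). Beside Scarb1, Cyp11b1 and Fdx1 the drug efflux pump Abcb1b rose, from 8.65, 7.78 and 8.74 to 9.76, 9.61, 9.78 and 9.72 (1.32 ± 0.17, adjusted p = 0.00119). The 1 gene that fell is Aldh1a1, a retinaldehyde dehydrogenase (-1.55 ± 0.37, adjusted p = 0.0425), with overlapping groups and a call lost in 5 of the 7 fits, up to an adjusted p of 0.173 without withdrawal replicate 2. Its relative Aldh1a7 went from 7.72, 7.47 and 5.97 to 4.65, 5.74, 4.80 and 5.05 (-1.99 ± 0.48, adjusted p = 0.0449; 0.178 without withdrawal replicate 2), a call held in 2 of the 7 fits. In the X zone list of 6 genes 1 rose, Frmd5, and 1 fell, Aldh1a7 (median 0.17). Frmd5 rose by 1.00 ± 0.19 (adjusted p = 0.0144, and 0.0805 without withdrawal replicate 2). The X zone genes Akr1c18 and Pik3c2g were at the floor in all 7 arrays, at 1.35 or less.

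**Figure D4:**
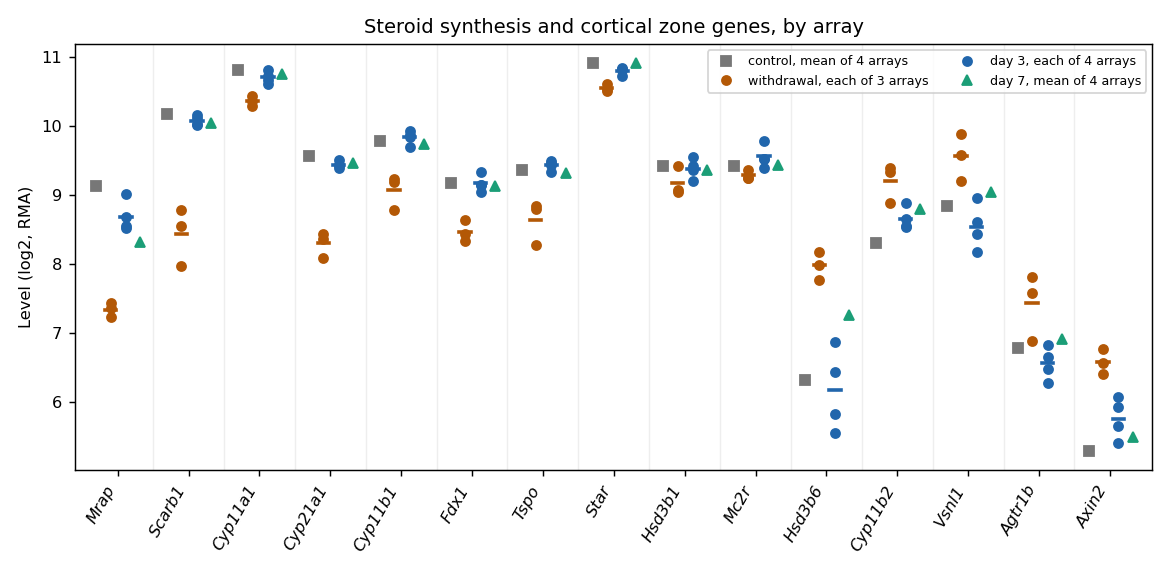
Levels (log2, vertical axis) of 15 genes of ACTH action, steroid synthesis and the cortical zones, marked as in the plot of cholesterol enzymes. Cyp21a1, Scarb1 and Cyp11b1 rose to 9.44, 10.08 and 9.84, with control means of 9.56, 10.18 and 9.79, and Hsd3b6 fell from 7.98 to 6.17, against 6.32 in control.

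Some genes of mitochondrial energy metabolism rose, with a median of 0.22 log2 in oxidative phosphorylation. In oxidative phosphorylation 5 of 23 genes rose, 0 fell and 22 had a higher mean. Ndufs8, a subunit of complex I, stood at 8.94, 8.81 and 8.89 at withdrawal and at 9.28, 9.48, 9.40 and 9.37 at day 3 (0.51 ± 0.08, adjusted p = 0.00535) and was called in all 7 fits without 1 array. Its adjusted p was 0.0614 in the fit of the 7 arrays alone. Cox5b (0.60), Cyc1 (0.46), Uqcrfs1 (0.40) and Ndufs1 (0.38) were also called. The count of the list fell to 1 without withdrawal replicate 1 or 2, to 2 without withdrawal replicate 3 or day 3 replicate 3, and to 3 without day 3 replicate 1. In the citric acid cycle 3 of 17 rose (median 0.18), led by pyruvate carboxylase, Pcx, which makes oxaloacetate. Pcx stood at 5.17, 5.01 and 5.28 at withdrawal and at 6.43, 6.51, 6.70 and 6.57 at day 3, a 2.63-fold rise (adjusted p = 7.58e-05). The dehydrogenase subunits Dld and Pdhb rose by 0.38 each, and their calls held in 1 and 0 of the 7 fits (adjusted p up to 0.12 without withdrawal replicate 2 and 0.144 without withdrawal replicate 3).

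Of 20 antioxidant genes the 3 that rose all belong to the mitochondrial thioredoxin system: the peroxidase Prdx3 (0.63 ± 0.14, adjusted p = 0.0323), thioredoxin Txn2 (0.46 ± 0.09, adjusted p = 0.0203) and its reductase Txnrd2 (0.44 ± 0.10, adjusted p = 0.0338). This grouping was made after their values were seen. Their calls held in 2, 5 and 1 of the 7 fits, with adjusted p up to 0.154 and 0.0782 without withdrawal replicate 2 and 0.122 without withdrawal replicate 3. Of 18 genes of the mitochondrial ribosome and protein import limma called 0, with 10 at an unadjusted p under 0.05, and 17 had a higher mean (median 0.26). Of 10 genes of heme synthesis 0 were called and 2 had an unadjusted p under 0.05 (median 0.12). Ldhb, a lactate dehydrogenase subunit, fell from 8.43, 8.53 and 8.47 to 7.45, 7.42, 7.57 and 7.49 (-0.99 ± 0.12, adjusted p = 0.000571), the 1 call among 17 genes of hypoxia and glycolysis.

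In the outer cortex 5 of 16 zona glomerulosa genes fell and 0 rose, with a median of -0.56. Hsd3b6, the glomerulosa form of the dehydrogenase that makes progesterone, stood at 8.18, 7.98 and 7.77 at withdrawal and at 6.87, 6.43, 5.83 and 5.55 at day 3 (3.50-fold lower, adjusted p = 0.00852). The calcium sensor Vsnl1 stood at 9.20, 9.89 and 9.58 and then at 8.96, 8.44, 8.61 and 8.17 (-1.02 ± 0.18, adjusted p = 0.00674). Both were called in all 7 fits without 1 array, and day 3 replicate 1 was the highest day 3 array for both. Vsnl1 lost its call in the fit of the 7 arrays alone (adjusted p = 0.0831). Rgs4, a regulator of G protein signals (-0.94 ± 0.20, adjusted p = 0.0227), the angiotensin receptor Agtr1b (-0.86 ± 0.18, adjusted p = 0.0233) and the WNT target Axin2 (-0.82 ± 0.16, adjusted p = 0.016) fell. Aldosterone synthase, Cyp11b2, had 8.89, 9.40 and 9.33 at withdrawal and 8.89, 8.55, 8.65 and 8.54 at day 3 (-0.55 ± 0.16, adjusted p = 0.108). The count of glomerulosa calls was 3 without withdrawal replicate 1, withdrawal replicate 2 or day 3 replicate 4, and 2 without withdrawal replicate 3. Without these arrays Rgs4, Agtr1b and Axin2 had adjusted p up to 0.091 and 0.0743 without withdrawal replicate 1 (Rgs4 and Axin2) and 0.119 without withdrawal replicate 2 (Agtr1b).

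Of 16 cortical transcription factors and cofactors 2 fell, 0 rose and 13 had a lower mean. Cited2, a cofactor needed for the adrenal primordium, stood at 8.30, 8.56 and 8.25 at withdrawal and at 6.88, 7.44, 7.73 and 7.75 at day 3 (-0.92 ± 0.18, adjusted p = 0.0156; 0.0845 without withdrawal replicate 2). Tcf21, a factor of capsular stroma, fell by 0.77 (adjusted p = 0.0382; 0.155 without withdrawal replicate 2), a call held in 1 of the 7 fits without 1 array. Nr5a1, the master regulator of steroid cells, differed by 0.23 ± 0.11 (adjusted p = 0.382) and the repressor Nr0b1 by -0.47 ± 0.17 (adjusted p = 0.212). In hedgehog signalling and the capsule 2 of 18 genes fell and 15 had a lower mean (median -0.37), Tcf21 again and the hedgehog effector Gli2. Gli2 stood close to the floor at withdrawal, at 1.78, 1.63 and 2.20, and at the floor at day 3, at 1.19, 1.41, 1.31 and 1.13, so that its fall may be understated (-0.61 ± 0.14, adjusted p = 0.0344; 0.135 without withdrawal replicate 3). Its call held in 2 of the 7 fits. Axin2 was the 1 call among 24 WNT and R-spondin genes (median -0.13), where Wnt4 had -0.59 ± 0.15 (adjusted p = 0.0592) and Lgr5 -0.32 ± 0.15 (adjusted p = 0.362).

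Genes of cell division were higher at day 3. Of 31 mitosis genes 16 rose, 0 fell and all 31 had a higher mean, with a median of 0.99 log2. The mean level of the list was 4.13 to 4.35 in the day 3 arrays and 3.14 to 3.39 at withdrawal. It was 3.34 to 3.82 in control and 3.22 to 3.78 on day 7, so that the 4 day 3 arrays were the highest of the series. Top2a, the topoisomerase that untangles replicated chromosomes, has the largest difference among called mitosis genes whose promoter holds a searched motif, and its promoter is shown for that reason. It is the 250 bases before the RefSeq start on the minus strand of GRCm38.p6 at chr11:99024190-99024439, 5′ to 3′. The capitals mark CCAAT on either strand (6 matches, most of them read as ATTGG) and the core of the cell cycle homology region, TTTGAA, on either strand (2 matches):
Top2a: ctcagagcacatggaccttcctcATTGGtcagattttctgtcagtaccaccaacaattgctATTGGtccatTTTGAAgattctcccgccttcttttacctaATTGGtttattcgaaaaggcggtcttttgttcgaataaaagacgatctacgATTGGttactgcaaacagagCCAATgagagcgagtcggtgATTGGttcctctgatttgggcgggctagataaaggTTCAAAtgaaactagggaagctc
Of the 16 called mitosis genes 15 are in the RefSeq table with 1 start each. 10 of these 15 promoters (66.7%) hold CCAAT and 5 (33.3%) hold TTTGAA, against 33.8% and 16% of all 32851 promoters.

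The kinetochore gene Nuf2 rose most in the list, from 3.67, 3.03 and 3.35 to 5.29, 5.16, 4.51 and 4.97 (3.09-fold, adjusted p = 0.00852; 0.0548 without withdrawal replicate 2). Top2a stood at 4.63, 3.70 and 4.63 at withdrawal and at 5.32, 5.85, 5.72 and 5.68 at day 3 (2.50-fold, adjusted p = 0.00521). Withdrawal replicate 2 was the low array for both. The proliferation marker Mki67 stood at 3.86, 4.41 and 4.60 and then at 5.85, 5.23, 5.49 and 5.62 (1.25 ± 0.22, adjusted p = 0.00705). Survivin, Birc5, went from 1.91, 1.83 and 1.92, near the floor, to 3.57, 3.07, 2.78 and 3.15 (1.26 ± 0.17, adjusted p = 0.00183). Cdk1, the kinase that starts mitosis, rose from 5.42, 5.34 and 5.47 to 6.11, 6.63, 6.86 and 6.57 (1.13 ± 0.21, adjusted p = 0.0118; 0.0561 without withdrawal replicate 2).

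The other called members were Aurkb, Ube2c, Anln, Kif11, Nusap1, Ttk, Plk1, Cenpe, Cenpf, Melk and Hmmr, with rises of 0.73 to 1.21. For 10 mitosis genes every day 3 array lay above each of the other 11 arrays of the series. The mitotic cyclin Ccnb2 went from 4.65, 4.50 and 4.95 to 6.44, 6.59, 5.77 and 5.42 and did not pass (1.35 ± 0.35, adjusted p = 0.0592), which also held for the cyclin Ccna2 (1.01 ± 0.32, adjusted p = 0.13). 10 genes of the list were called without withdrawal replicate 1, 5 without withdrawal replicate 2 and 7 without day 3 replicates 1 and 2, with medians of 0.95, 0.86 and 0.89. Cdkn3, a phosphatase that acts on cyclin-dependent kinases, rose from 3.05, 2.56 and 2.43 to 5.46, 4.90, 3.97 and 3.73 (1.84 ± 0.36, adjusted p = 0.0157). Its adjusted p was 0.0704 without withdrawal replicate 2, and it differed by 1.17 (adjusted p = 0.112) without day 3 replicates 1 and 2.

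Genes of the other phases of the cell cycle showed fewer calls. In DNA replication 3 of 33 genes rose and 31 had a higher mean (median 0.28). They were the replication licensing ligase Dtl (1.16 ± 0.21, adjusted p = 0.00867), the helicase cofactor Cdc45 (0.92 ± 0.21, adjusted p = 0.037) and Uhrf1, which carries DNA methylation through replication (1.46 ± 0.32, adjusted p = 0.0278). Dtl was called in all 7 fits without 1 array, while the others were called in 1 fit each (adjusted p up to 0.15 and 0.094 without withdrawal replicate 3). Uhrf1 was lowest at day 3 in replicate 1 (3.05) and highest in replicate 3 (4.38), against 2.25 to 2.62 at withdrawal. The helicase subunits Mcm2 (-0.04), Mcm3 (0.15) and Mcm4 (0.36) did not pass. Of 11 chromatin genes of dividing cells 4 rose, Hmgb2, Hells, Lmnb1 and Smc2, by 0.51 to 0.79, and the heterochromatin protein gene Cbx5 fell by 0.53. These 5 calls held in 1 or 2 of the 7 fits, with adjusted p up to 0.173 for Lmnb1 without withdrawal replicate 2. Of 24 genes of G1 cyclins, E2F factors and CDK inhibitors limma called 0 (5 at an unadjusted p under 0.05; median 0.06), with the cyclin Ccnd1 at -0.01 ± 0.19. Of 23 ribosome biogenesis genes 0 were called (3 at an unadjusted p under 0.05; median -0.10).

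**Figure D5:**
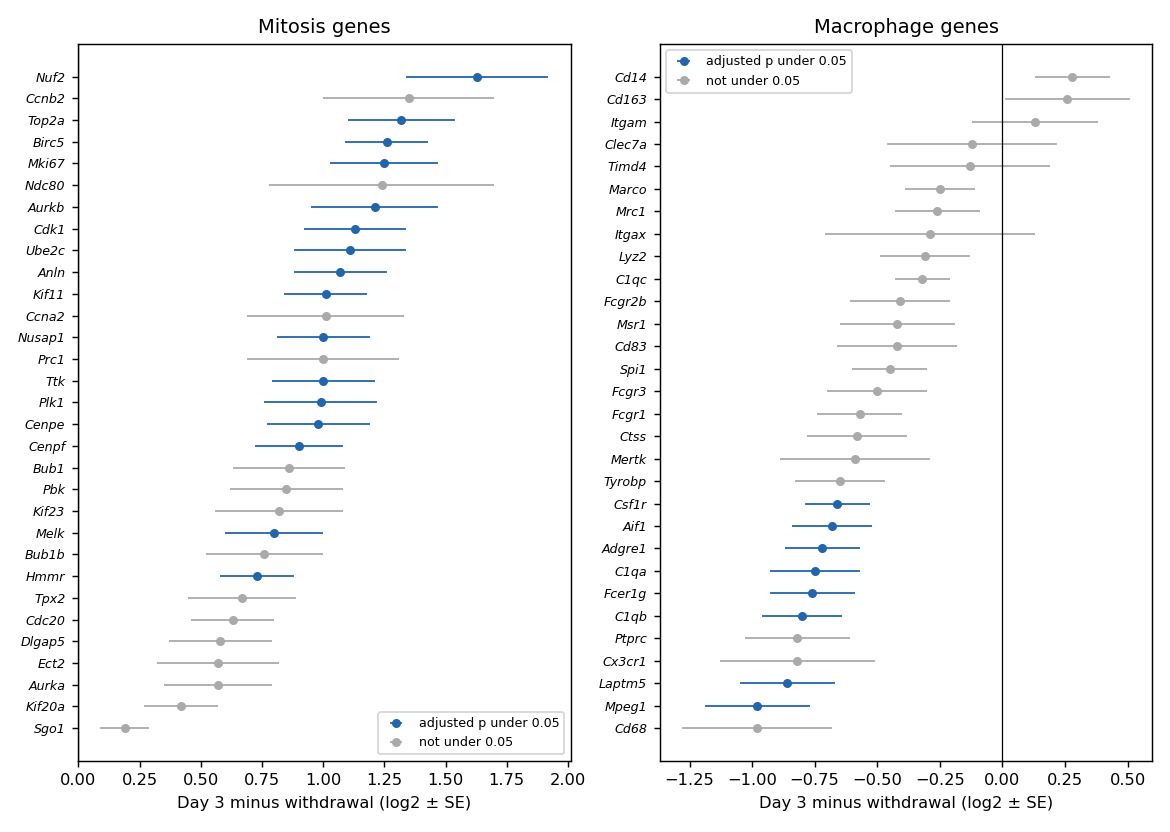
Difference between day 3 and withdrawal (log2, horizontal axis) of each of 31 mitosis genes and 30 macrophage genes, with the standard error of the limma fit as a bar; blue marks an adjusted p under 0.05. All 31 mitosis genes lie above 0, from 0.19 to 1.63, and 27 of the 30 macrophage genes lie below it.

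Among growth factors 2 of 22 genes rose and 1 fell. The inhibin subunit Inha stood at 4.34, 4.54 and 4.04 at withdrawal and at 5.48, 5.94, 5.42 and 5.70 at day 3, with a control SD of 0.79 around 4.49. Its rise of 1.33 ± 0.31 (adjusted p = 0.0387) was called in 0 of the 7 fits without 1 array, with adjusted p up to 0.134 without withdrawal replicate 3. Igf1 went the other way, from 5.97, 5.73 and 5.95 to 4.81, 4.96, 5.28 and 5.25 (-0.81 ± 0.17, adjusted p = 0.0235; 0.0833 without withdrawal replicate 1). Igf2r, which clears IGF2, rose by 0.37 ± 0.08 (adjusted p = 0.0264; 0.108 without withdrawal replicate 2). The calls of Igf1 and Igf2r each held in 2 of the 7 fits.

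Endothelial genes rose in part: 5 of 25 were called, 0 fell and 21 had a higher mean (median 0.33). The apelin receptor Aplnr stood at 4.87, 3.86 and 5.05 at withdrawal and at 6.42, 6.73, 6.35 and 6.31 at day 3 (3.63-fold, adjusted p = 0.002). Icam2, an adhesion molecule of resting endothelium, rose by 0.82 ± 0.13 (adjusted p = 0.00384) with narrow groups, at 4.05 to 4.19 and 4.69 to 5.09. The endothelial factor Erg rose from 5.17, 4.44 and 4.73 to 6.03, 5.56, 5.83 and 6.04 (adjusted p = 0.0119; 0.0704 without withdrawal replicate 2), and its 4 day 3 arrays lay above each of the other 11. The tight junction gene Cldn5 (0.71) and Pecam1 (0.39) were also called, in 5 and 1 of the 7 fits without 1 array. The VEGF receptor Kdr had 0.54 ± 0.17 (adjusted p = 0.122). The count was 3 without withdrawal replicate 2, withdrawal replicate 3 or day 3 replicate 4. Flt4, the VEGF receptor of lymphatic and sinusoidal endothelium, rose by 1.22 ± 0.26 (adjusted p = 0.0235; 0.0991 without withdrawal replicate 3).

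Oit3, a gene known from liver sinusoidal endothelium, stood at 2.12, 2.02 and 2.15 at withdrawal and at 3.67, 3.97, 3.94 and 4.07 at day 3 (3.52-fold, adjusted p = 0.00183). It differed by 1.91 (adjusted p = 0.0135) without replicates 1 and 2, a limma fit that keeps replicate 3, which also carried liver genes. The part of liver cells in this rise was not tested. The 4 day 3 arrays of Oit3 lay above each of the other 11 arrays of the series. The endothelial receptor Gpr182 (0.80 ± 0.19, adjusted p = 0.0394) and Nostrin, a partner of endothelial nitric oxide synthase (0.86 ± 0.16, adjusted p = 0.0115), also lay above the other 11; both were chosen after their values were seen. Kit, a receptor of mast cells and of other cell types, rose from 1.79 to 1.94 at withdrawal, near the floor, to 2.47 to 2.79 at day 3 (adjusted p = 0.00192). The mast cell proteases Cpa3 (-0.48 ± 0.42), Mcpt4 (0.01 ± 0.42) and Cma1 (0.00 ± 0.38) did not pass. Of 13 smooth muscle and pericyte genes 1 rose, Cnn1, from 2.29 to 2.41 at withdrawal to 2.57, 3.97, 3.36 and 3.85 at day 3 (adjusted p = 0.0314; 0.0976 without withdrawal replicate 2). Its call held in 1 of the 7 fits without 1 array.

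Macrophage genes were lower at day 3. Of 30 measured genes 8 fell, 0 rose and 27 had a lower mean, with a median of -0.53. The mean of the list was 5.57 to 5.83 at withdrawal, 5.01 to 5.50 at day 3 and 4.79 to 4.90 in control. The receptor Csf1r, on which macrophages depend, stood at 6.23, 5.96 and 5.81 at withdrawal and at 5.19, 5.38, 5.45 and 5.35 at day 3 (-0.66 ± 0.13, adjusted p = 0.0152). The complement gene C1qb stood at 8.01, 8.52 and 7.96 and then at 7.23, 7.58, 7.23 and 7.41 (-0.80 ± 0.16, adjusted p = 0.0152). The groups did not overlap for either. Mpeg1, Laptm5, Fcer1g, C1qa, Adgre1 and Aif1 fell by 0.68 to 0.98. The count was 0 without withdrawal replicate 2, which had the highest macrophage mean of the series, 2 without withdrawal replicate 1, 5 without withdrawal replicate 3 or day 3 replicate 4, 3 without day 3 replicate 1 or 3, and 1 without day 3 replicates 1 and 2. The median then stayed between -0.43 and -0.61. Cd68, a lysosomal protein of macrophages, stood at 8.73, 9.11 and 8.33 and then at 7.32, 8.36, 7.47 and 7.85 (-0.98 ± 0.30, adjusted p = 0.123), with day 3 replicate 2 inside the withdrawal range.

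Of 10 genes of macrophages that recycle iron from red cells 3 fell and 0 rose (median -0.55). Spic, the transcription factor of these cells, stood at 4.44, 4.13 and 3.07 at withdrawal and at 1.96, 2.38, 1.77 and 2.24 at day 3 (3.46-fold lower, adjusted p = 0.00183). The surface receptor Treml4 stood at 3.02, 3.77 and 3.33 and then at 1.93, 2.26, 2.38 and 2.03 (-1.22 ± 0.17, adjusted p = 0.00183). Both were called in all 7 fits without 1 array, and the 4 day 3 arrays of Spic lay below each of the other 11 arrays, with a control mean of 2.54. Slc11a1, a metal transporter of phagosomes, fell by 1.16 ± 0.27 (adjusted p = 0.0397; 0.188 without withdrawal replicate 2), a call held in 1 of the 7 fits. The iron exporter Slc40a1 had 6.24, 6.37 and 5.57 at withdrawal and 3.63, 5.23, 5.26 and 5.06 at day 3 and did not pass (-1.26 ± 0.38, adjusted p = 0.112). Cd5l, a protein secreted by macrophages, fell from 2.28, 4.34 and 2.85 to 1.22, 1.07, 1.10 and 0.94, at the floor, so that the fall of 2.08 ± 0.42 may be understated (adjusted p = 0.0189; 0.0795 without withdrawal replicate 2).

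Of 23 genes of lipid-laden macrophages 1 fell, the lipid receptor Trem2, from 6.13, 6.69 and 5.81 to 4.25, 5.62, 4.65 and 4.64 (-1.42 ± 0.34, adjusted p = 0.0401). Its call held in 1 of the 7 fits, with adjusted p up to 0.182 without withdrawal replicate 2. Gpnmb had 9.03, 9.81 and 8.77 at withdrawal and 7.65, 9.20, 7.76 and 8.50 at day 3, with overlapping groups (-0.92 ± 0.82, adjusted p = 0.698) and a control mean of 1.57. The elastase Mmp12 differed by -0.44 ± 0.39 (adjusted p = 0.695). Day 3 replicate 2 was the highest day 3 array for Trem2, Gpnmb and Mmp12. Of 26 lysosome genes 1 rose, the proton pump subunit Atp6v1h (0.51 ± 0.08, adjusted p = 0.00269), and 1 fell, the protease Ctsa (-0.52 ± 0.13, adjusted p = 0.0473; 0.193 without withdrawal replicate 2). Ctsa was called in 2 of the 7 fits. Limma called 0 of 19 CC chemokine and monocyte genes (median -0.35), 0 of 13 MHC class II genes (median -0.07), 0 of 15 T and NK cell genes and 0 of 9 B cell genes, with 4, 0, 2 and 1 at an unadjusted p under 0.05. Blnk, an adaptor of B cells and macrophages, fell from 5.77, 6.19 and 4.82 to 3.77, 4.72, 3.98 and 4.14 (adjusted p = 0.0227; 0.118 without withdrawal replicate 2), a call held in 2 of the 7 fits.

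Single genes outside the lists had the largest differences. Mapk13, a p38 kinase, stood at 3.97, 4.23 and 4.94 at withdrawal and at 7.01, 7.12, 7.34 and 7.36 at day 3, the largest rise of all named genes called (7.12-fold, adjusted p = 3.2e-05), with a control mean of 7.34. The crystallin gene Cryba4 stood at 5.0, 4.66 and 4.73 and then at 7.51, 7.64, 7.25 and 7.45 (6.35-fold, adjusted p = 0.000494). The defensin Defb19 stood at 3.26, 4.17 and 3.60 and then at 6.19, 5.80, 5.39 and 5.57 (4.17-fold, adjusted p = 0.000717). The 3 genes were called in every alternative fit run. Tnfaip8l1 rose 3.04-fold (adjusted p = 0.00521), and Dcpp2 rose from the floor, 0.93 to 1.23, to 2.16 to 3.48 (adjusted p = 0.014; 0.0641 without withdrawal replicate 2).

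Among the largest falls Spink4, a protease inhibitor, stood at 5.55, 3.93 and 2.57 at withdrawal and at 0.88, 0.96, 1.19 and 1.80 at day 3, at or near the floor, so that its fall of 7.01-fold may be understated (adjusted p = 0.00521). Its withdrawal arrays lay far apart, with an SD of 1.49. The SD was 0.08 in control and 0.36 on day 7, and the limma fit pools the spread of all 4 groups. The call of Spink4 was lost in the fit of the 7 arrays alone (adjusted p = 0.0831) and without day 3 replicates 1 and 2 (0.0663). The potassium leak channel Kcnk5 stood at 5.22, 5.26 and 4.68 and then at 3.61, 2.35, 3.14 and 2.43 (4.50-fold lower, adjusted p = 0.00462). Gabrg3, a GABA receptor subunit, stood at 6.65, 5.78 and 6.18 and then at 4.34, 5.17, 3.84 and 3.62 (-1.96 ± 0.32, adjusted p = 0.00485). Another potassium channel gene, Kcnd2, had narrow groups, 6.68, 6.46 and 6.36 against 4.86, 5.60, 5.01 and 4.89 (-1.41 ± 0.18, adjusted p = 0.000897). Kcnk5, Gabrg3 and Kcnd2 were called in all 7 fits without 1 array, and Gabrg3 was not called in the fit of the 7 arrays alone (adjusted p = 0.0607). The control means of Kcnk5, Gabrg3 and Kcnd2 were 3.36, 3.54 and 4.80.

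The enzyme Ggt5, which acts on glutathione conjugates and leukotrienes, fell from 6.84, 6.29 and 6.13 to 4.15, 4.91, 4.71 and 4.85 (3.40-fold, adjusted p = 0.000494). Tiparp, a target of the aryl hydrocarbon receptor, fell from 7.60, 6.52 and 6.80 to 5.69, 4.68, 5.58 and 5.38 (adjusted p = 0.00521), and the zinc finger gene Zfp872 by 1.5 ± 0.26 (adjusted p = 0.00777), with day 3 replicates 1 and 3 at the floor. The groups did not overlap for the 3, as the choice of the largest falls required. The control means of the 3 genes, 4.52, 5.36 and 1.84, were close to the day 3 means of 4.65, 5.33 and 1.65. The vasopressin receptor Avpr1a fell from 6.45, 5.02 and 4.27 to 4.00, 3.48, 3.82 and 3.35 (-1.59 ± 0.34, adjusted p = 0.0249). It differed by -0.98 without withdrawal replicate 1, and its call was lost without withdrawal replicate 2 (adjusted p = 0.0641), day 3 replicate 2 (0.0621) or day 3 replicate 4 (0.0708). The semaphorin receptor Plxnc1 fell by 1.48 ± 0.33 (adjusted p = 0.0297; 0.123 without withdrawal replicate 3), a call held in 2 of the 7 fits without 1 array.

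Lists for responses to glucocorticoid, stress and injury had few calls. Of 22 genes of the glucocorticoid receptor and its targets 1 fell, the glutamine synthetase Glul, from 9.60, 9.39 and 9.20 to 8.82, 8.88, 9.0 and 8.88 (adjusted p = 0.0199; 0.085 without withdrawal replicate 1), below each of the other 11 arrays. The receptor target Fkbp5 (-0.22 ± 0.18, adjusted p = 0.646) and Tsc22d3, an anti-inflammatory target (-0.29 ± 0.12, adjusted p = 0.287), did not pass. Of 21 immediate early genes 1 fell, the shear-stress factor Klf2 (-0.58 ± 0.13, adjusted p = 0.0271; 0.114 without withdrawal replicate 2). That call held in 1 of the 7 fits without 1 array. Limma called 0 of 19 unfolded protein response genes, 0 of 18 genes of ATF4 and amino acid synthesis and 0 of 17 p53 targets and apoptosis genes. At an unadjusted p under 0.05 there were 4, 6 and 2, and the medians were 0.12, 0.03 and -0.11. Of 16 interferon-stimulated genes 1 fell, Oasl2 (-0.78 ± 0.18, adjusted p = 0.0344; 0.127 without withdrawal replicate 2), and of 29 extracellular matrix genes 1, the matricellular protein Postn (-0.82 ± 0.17, adjusted p = 0.0203; 0.0813 without withdrawal replicate 3). The calls of Oasl2 and Postn held in 1 and 4 of the 7 fits. The medullary call was Gata3 (-0.77 ± 0.14, adjusted p = 0.0118; 0.0533 without withdrawal replicate 3), a factor of chromaffin and lymphoid cells, whose other probe set differed by -0.37.

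Day 3 stood outside the range of the other groups for few genes. For 71 of the 21439 genes all 4 day 3 arrays lay above each of the 11 other arrays, and for 28 they lay below. Among the 293 genes called higher 37 did so, among them the 10 mitosis genes and the cholesterol enzymes Tm7sf2, Nsdhl and Hsd17b7. Among the 190 genes called lower 5 lay below all others: Abca1, Glul, Spic, the adhesion receptor Adgrg1 (-0.71 ± 0.16) and the transcriptional regulator Tsc22d1 (-0.39 ± 0.09), the last pair named after their values were seen. The call and this count rest on the same day 3 and withdrawal arrays and were not tested together.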

How the data were processed

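Whole adrenal RNA was labelled with the WT Pico kit and hybridised to 15 Affymetrix arrays, per the labels' protocols. The authors deposited log2 levels made by robust multi-array average (RMA) in oligo, as the submitters' processing notes list. Software versions, annotation and filters: not given in the sources used here. Of 32736 probe sets, 22399 carry 1 gene symbol in the platform annotation and were used. For 807 genes with several, the probe set of highest mean was kept. Names were checked against RefSeq (GRCm38.p6), which also gave the promoters. The mean correlation of an array with its group was 0.988 to 0.991, 0 pairs were identical, and the number of arrays limits the precision.

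Limma 3.58.1 in R 4.3.3 (lmFit, eBayes) was fitted to all 15 arrays in 4 groups. A difference is day 3 minus withdrawal, log2 ± standard error, with Benjamini-Hochberg adjustment over all 21439 genes. P-values measure the spread between arrays titled as biological replicates, pooled over all 4 groups. The scripts were tested on simulated data. The comparison and gene lists were chosen with earlier results of these data known. Named are the 15 largest rises and 15 largest falls without overlap (no predicted or clone names, small RNAs, histone genes or immunoglobulin, T cell, olfactory and vomeronasal receptor families), up to 6 called members and the first 3 members of each list, and the liver and neutrophil genes with the largest gap between 1 day 3 array and the others. Alternatives changed the arrays fitted, limma options, a replicate block, a filter on dim genes, scaling and the probe set rule.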

Additional observations from a re-analysis of the deposited data

Results flagged for a closer look

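Of 293 named genes and list means examined, 20 passed Dixon's criterion for 4 samples. In these the gap from 1 day 3 array to the nearest of the other 3 took up most of the group's range. Chance alone flags about 1 in 20. The 5 liver and 5 neutrophil genes of largest gap were named for that gap, so the count cannot be set against this rate. In day 3 replicate 2 the high values were neutrophil genes: S100a8 at 7.69, S100a9 at 7.47, Camp at 5.43, Retnlg at 3.15 and Ngp at 3.09, and the mean of the neutrophil list at 2.43. The adipokine Retn (5.09), the glucocorticoid target Tsc22d3 (3.90), Gli1 (0.91) and the kidney transporter Slc34a1 (0.75) were low in the same array, the last pair at the floor. In day 3 replicate 1 the liver gene Ambp (3.98), the podoplanin gene Pdpn (5.40) and the histone methyltransferase gene Ezh2 (5.61) were high. Srebf1 (4.84), the lipoprotein receptor Lrp1 (6.51), Lmnb1 (5.32), Clock (7.35) and Slc40a1 (3.63) were low there. In day 3 replicate 4 Pdhb was high (8.25) and Pik3c2g low, at the floor (0.92). What these values come from was not tested.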

How the results depend on the processing

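Against 293 genes higher and 190 lower, a fit of the 7 arrays alone called 109 and 52, and leaving out day 3 replicates 1 and 2 together gave 145 and 60. With a minimum difference of 2-fold the counts were 78 and 43. Without 1 array they ran from 130 to 227 higher and from 79 to 165 lower. The replicate block gave 166 and 91. The deviations of arrays with the same number correlated at -0.02, 0.09 and 0.09, and those of other numbers at -0.06 to 0.09. These few values cannot show whether equal numbers pair the arrays. The counts stayed within 1.5 times with limma's trend and robust options (368 and 230), a filter on dim genes (383 and 276), array medians centred (374 and 162), further quantile normalization (317 and 192), array weights and both other probe set rules. Centring moved the median of all genes from -0.005 to 0.038. Of 111 calls of named genes 48 held in all 7 fits without 1 array and 36 in all alternatives, and 0 reversed. The 7-array fit lost 65, the replicate block 50 and the fit without day 3 replicates 1 and 2 53. Among the 65 were Spink4, Vsnl1, Gabrg3, Tspo, Ndufs8, Top2a and Tiparp. Values that were not called changed sign 156 times. Levels at the floor leave no room for a fall.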

Other observations

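The clock genes Arntl and Npas2 were spread widely within day 3. The mean of the clock list was 5.01 to 5.14 at day 3 and 5.28 to 5.42 at withdrawal. In this list 12 of 16 genes had a lower mean at day 3 (median -0.25). The clock activator Arntl stood at 3.65, 5.69, 5.35 and 5.19 at day 3 and between 5.02 and 5.15 at withdrawal, with replicate 1 far below the rest (-0.12 ± 0.54, adjusted p = 0.962). Its partner Npas2 stood at 2.78, 3.85, 3.25 and 2.65, against 2.84 to 3.21 at withdrawal (adjusted p = 0.959). Of 16 clock genes 1 fell, the output factor Hlf, from 6.02, 6.09 and 6.17 to 5.41, 5.51, 5.43 and 5.58 (-0.61 ± 0.13, adjusted p = 0.0273; 0.094 without withdrawal replicate 3). Its call held in 1 of the 7 fits without 1 array.

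The growth factor Vegfa stood at 8.53, 7.55, 8.01 and 7.95 at day 3 and at 7.10, 7.71 and 7.39 at withdrawal (0.61 ± 0.25, adjusted p = 0.284). Other lymphatic markers had differences of either sign that did not pass: Lyve1 differed by 0.54 ± 0.34 (adjusted p = 0.541), Prox1, which steroid cells of the cortex share, by -0.61 ± 0.16 (adjusted p = 0.0681) and Pdpn by -0.71 ± 0.24 (adjusted p = 0.171).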
